A study of Homo sapiens with 3 samples.

Results

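Genes of the SOX, FOX, POU and TBX families encode transcription factors, many of which act in cell identity during development. Of the 87 family genes considered, 15 were assigned a peak in a chromatin immunoprecipitation sequencing (ChIP-seq) list of wild-type MECOM. The family genes were chosen by gene name, with earlier results of these data known. The names taken were SOX followed by digits and FOX followed by a letter from A to S and digits. POU with its class and factor digits and TBX followed by digits were also taken. SOX4, FOXC1, FOXC2, FOXD1 and TBX18 were left out of the selection, and their values are given separately. The 15 genes held 18 of the 3462 peaks of the list.

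MECOM, also called EVI1, is a zinc finger transcription factor which some myeloid leukaemias express at high levels. The libraries came from HEK293T, a transformed human embryonic kidney line, and the groups were wild-type MECOM, its R750W form and an empty pMYS-IG vector, with 1 library in each. All cells were given a construct, and the antibody recognised an AM tag, a short peptide on the introduced protein, so binding of any untagged MECOM of the cells was not measured. The labels call the delivery transfection in the protocol and transduction in the design text, and the design text also names a DL/AS form for which there was no sample. The peak list used carries the name of the wild-type genotype, and lists of R750W and vector cells were not analysed here. No group was therefore compared with another, no peak has a replicate, and what the tag antibody precipitates from vector cells was not examined here. A peak list holds no expression values, so neither the kidney identity of the cells nor expression of the family genes could be checked.

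SOX proteins bind DNA through an HMG box that bends the helix, and FOX proteins bind through a winged helix. POU proteins carry a POU-specific domain joined to a homeodomain, and SOX and POU factors often bind side by side, as SOX2 and POU5F1 do in pluripotent cells. T-box proteins such as TBX3 and TBX20 bind through the T-box domain and act in heart and limb formation. MECOM has separate zinc finger domains, of which the first recognises GATA-like letters and the second letters that resemble ETS sites.

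Member promoters crossed by a peak are printed here, because their sequences show which part of each lay under it. The sequences are RefSeq promoter windows on GRCh38.p14, running 5′ to 3′ along the gene for 300 bases, from 250 before the annotated start to the 50 that begin at it. Capitals mark the bases inside the deposited peak.
FOXD3, chr1:63322317-63322616, plus strand: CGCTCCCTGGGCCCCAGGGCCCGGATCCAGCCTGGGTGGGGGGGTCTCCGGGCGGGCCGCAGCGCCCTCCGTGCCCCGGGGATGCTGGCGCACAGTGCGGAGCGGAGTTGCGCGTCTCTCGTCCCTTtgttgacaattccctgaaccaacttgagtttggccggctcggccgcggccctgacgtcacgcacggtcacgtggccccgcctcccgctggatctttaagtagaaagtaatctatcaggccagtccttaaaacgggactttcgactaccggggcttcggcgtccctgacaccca
FOXF2, chr6:1389326-1389625, plus strand: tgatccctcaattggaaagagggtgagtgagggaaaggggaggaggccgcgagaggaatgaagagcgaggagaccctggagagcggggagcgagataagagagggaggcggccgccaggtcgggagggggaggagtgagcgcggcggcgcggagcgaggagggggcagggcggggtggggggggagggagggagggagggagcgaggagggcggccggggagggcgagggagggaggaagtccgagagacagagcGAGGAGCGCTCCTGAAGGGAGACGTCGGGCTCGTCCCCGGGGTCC
FOXJ3, chr1:42335186-42335485, minus strand: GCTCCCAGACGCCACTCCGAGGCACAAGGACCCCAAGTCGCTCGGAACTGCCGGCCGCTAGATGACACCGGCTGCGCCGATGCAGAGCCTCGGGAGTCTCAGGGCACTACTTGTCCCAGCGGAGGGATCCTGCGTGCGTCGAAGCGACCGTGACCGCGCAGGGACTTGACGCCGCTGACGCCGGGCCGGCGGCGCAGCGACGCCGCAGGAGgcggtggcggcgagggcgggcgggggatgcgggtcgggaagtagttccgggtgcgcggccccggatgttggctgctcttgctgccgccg
POU4F1, chr13:78603503-78603802, minus strand: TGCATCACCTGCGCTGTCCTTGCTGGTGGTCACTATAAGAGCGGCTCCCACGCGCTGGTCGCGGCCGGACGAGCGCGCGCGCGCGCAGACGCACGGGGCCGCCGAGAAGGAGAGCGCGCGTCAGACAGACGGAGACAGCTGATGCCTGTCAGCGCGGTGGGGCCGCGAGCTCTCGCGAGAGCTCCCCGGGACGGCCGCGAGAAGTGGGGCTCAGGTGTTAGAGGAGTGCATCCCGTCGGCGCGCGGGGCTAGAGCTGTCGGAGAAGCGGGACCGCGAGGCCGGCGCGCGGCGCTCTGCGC
In FOXD3 the peak covered the first 127 bases of the window and ended 124 bases before the start. In FOXF2 only the last 45 bases lay under the peak, which began just after the RefSeq start. In FOXJ3, which has several annotated starts, the peak covered 211 bases of the window shown and ended 40 bases before that start. The POU4F1 window lay wholly inside its peak and held 47 CG dinucleotides. The other windows held 29 in FOXD3, 26 in FOXF2 and 41 in FOXJ3.

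Windows were present for 62 of the 87 members, and these 4 genes had one crossed by a peak. Among all protein-coding genes with a window the share was 6.97%. The windows did not cover every annotated start. The peaks of FOXF1, FOXN2, FOXP2 and TBX3 spanned the start of the deposited annotation but crossed no window. These counts are thus of windows and not of all gene starts. Promoters of the 12 members with both a peak and a window had a median GC content of 68.9%, those of the 50 members with a window and no peak 65.3%, and those of protein-coding genes 62.3%. Protein-coding genes with a peak stood at 64.7%.

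Letters related to MECOM were then searched for in the windows on both strands. The GATA-like AGATAA occurred in the windows of 5 of 62 members (8.06%), against 12.4% of all 27305 genes with a window. Those 27305 genes, 15843 of them protein-coding, had windows with a median GC content of 58.3%, below the medians of both member groups above. GATGAG, the core of the letters of the second zinc finger domain, occurred in 6 members (9.68%) and in 14.4% of all genes. The ETS-like CGGAAG occurred in 8 members (12.9%) and in 22.6% of all genes. TGANTCA, the AP-1 letters, occurred in 6 members (9.68%) and in 9.37% of all genes; it reads the same on both strands. Among the 12 members with both a peak and a window, AGATAA occurred in 2 (16.7%), FOXF2 and FOXP2, CGGAAG in FOXB2 and TGANTCA in FOXO3, and GATGAG in none. At FOXP2, FOXO3 and FOXB2 the window with the match was not crossed by a peak. The FOXP2 match lay in a window at chr7:114414565-114414864, and the FOXP2 peak was at chr7:114086191-114086642. The FOXO3 match lay in a window at chr6:108588523-108588822, and the FOXO3 peak was at chr6:108559936-108560311. Both windows thus lay far from the starts beside those peaks. With so few genes these shares move widely with a single gene. Matches of different motifs may overlap at their ends, but no window of a member with a peak held matches of different motifs. Of the 4 printed windows only FOXF2 held any of the motifs, an AGATAA that begins 158 bases before the start, outside the peak. Peaks away from these windows were not read, because no genome sequence was used here.

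FOX genes made up most of the members with a peak. Of 42 FOX genes, 10 were assigned a peak (23.8%), against 2 of 12 TBX genes (16.7%), 2 of 15 POU genes (13.3%) and 1 of 18 SOX genes (5.56%). Together the families stood at 17.2%. The background was 1990 of 20037 protein-coding genes, or 9.93%. With peaks at a q of at most 1e-05 only, 8 of 87 members were assigned one (9.20%), against 5.52% of protein-coding genes. With peaks at or above the median fold only, 7 members were (8.05%), against 5.03% of protein-coding genes. The 4 families were not tested against each other or against the background, and 1 gene more or fewer moves the smaller families by several percentage points. The 15 genes with a peak had a median RefSeq span of 6028 bp, and the 72 without had 8032 bp. Protein-coding genes with a peak had a median span of 45580 bp, against 24115 bp for all protein-coding genes.

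**Figure D1:**
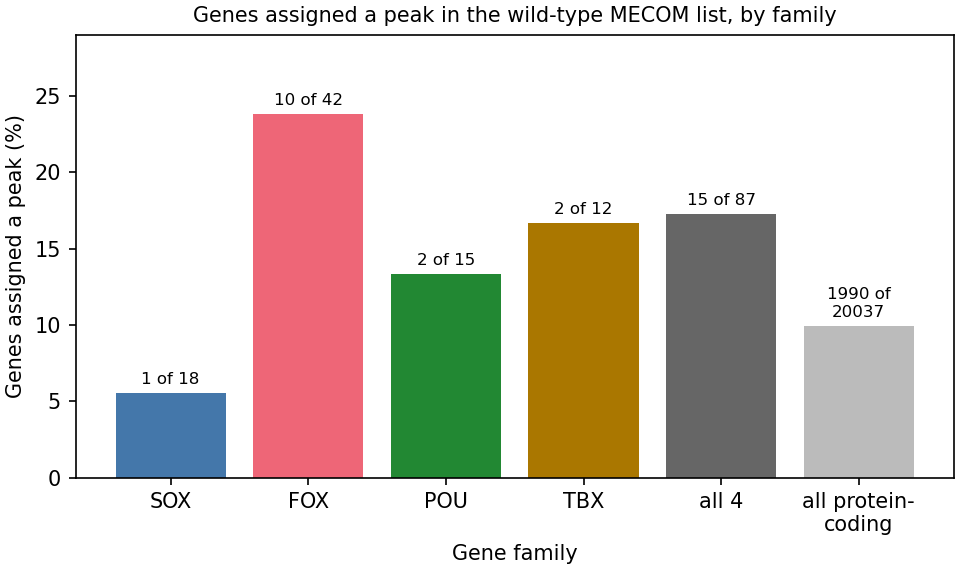
Bars give the share of genes assigned a peak in each family, in the 4 families together and among all protein-coding genes, with the number of genes above each bar. FOX stands at 23.8% and SOX at 5.56%, on either side of the 9.93% of all protein-coding genes.

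Within the FOX family the peaks were spread over classes. Both class F genes had one, as did 2 of 3 class J genes and 1 gene each of classes B, D, I, N, O and P. No peak was assigned to any gene of classes A, E, G, H, K, L, M, Q, R or S. In the POU family 1 of 4 class 3 genes and 1 of 3 class 4 genes had peaks, and classes 1, 2, 5 and 6 had none, which includes POU5F1. In the SOX family the gene with a peak was in group B2, and groups B1, C, D, E, F, G and H had none, which includes SOX2. TBX20, of the TBX1 subfamily, and TBX3, of the TBX2 subfamily, were the T-box genes with a peak.

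Most of the peaks lay at a gene start. By the distance from the first base of a peak, as the deposited annotation counts it, 11 of 18 began within 1000 bp of the start (61.1%, exact 95% binomial interval 35.7 to 82.7), and 55.7% of all 3419 annotated peaks did so. Peaks across the start numbered 6 of 18 (33.3%, 13.3 to 59.0), with 19.4% among all annotated peaks. A further 6 lay inside the gene, 4 upstream and 2 downstream. Both intervals include the share of the whole list. These places follow the deposited annotation. By RefSeq, the FOXF2 peak began just after the start and the FOXN2 peak lay inside the gene. The share of all peaks across a RefSeq start was not counted.

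**Figure D2:**
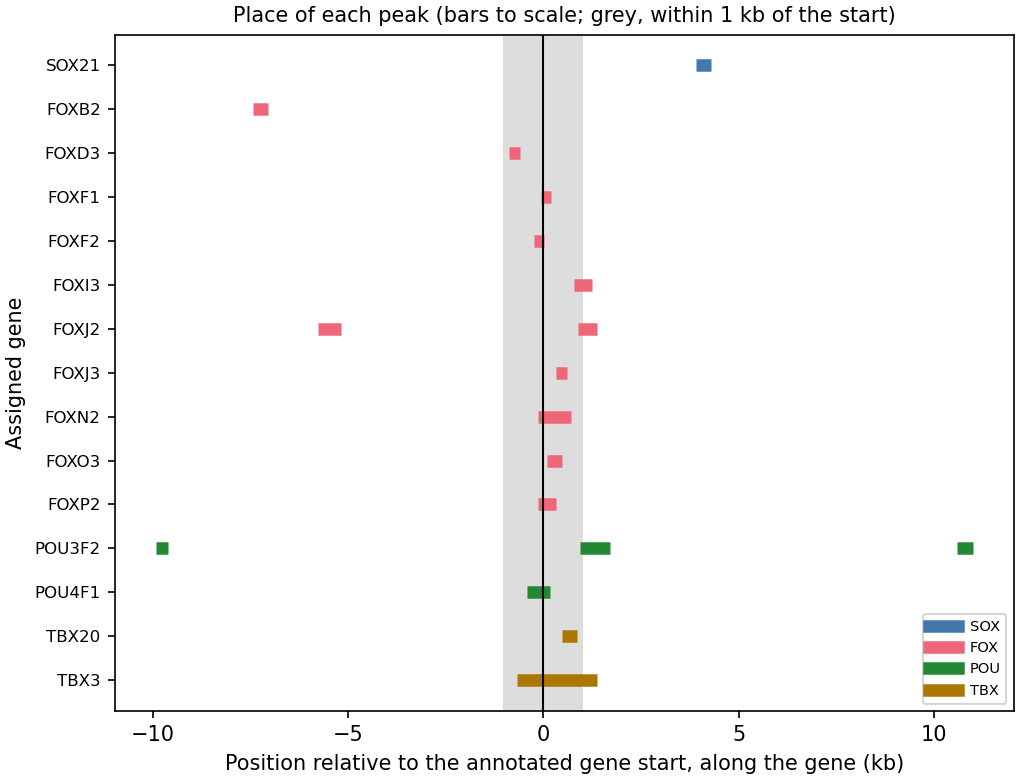
Each bar is a peak, drawn to scale, placed by its distance in kb from the annotated start of its gene, with the gene reading to the right. FOXF1, FOXF2, FOXN2, FOXP2, POU4F1 and TBX3 cross the start of the deposited annotation, and FOXJ2 and POU3F2 are the genes with more than 1 peak.

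The fold enrichment of a peak is the deposited ratio of fragments at its summit to the expected local background, with 1 added to each. The fragments were worked out from that ratio and the deposited p-value, and each fold is given with an exact 95% Poisson interval of the fragments, which covers counting error only. The 18 peaks had a median fold of 4.76, from 3.20 to 7.05, and the list a median of 4.82. They held 12 to 32 fragments with a median of 18.5, and the list a median of 18. Their median background was 3.62 fragments, that of the list 2.92. No interval lay wholly above the median of the list, against 5.46% of all peaks, and 1 lay wholly below it, against 4.68% of all peaks. Among the 153 pairs of member peaks none had intervals that did not overlap. Overlap of intervals is not a test of a difference, and no pair was tested, so no order of the members by fold is established.

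**Figure D3:**
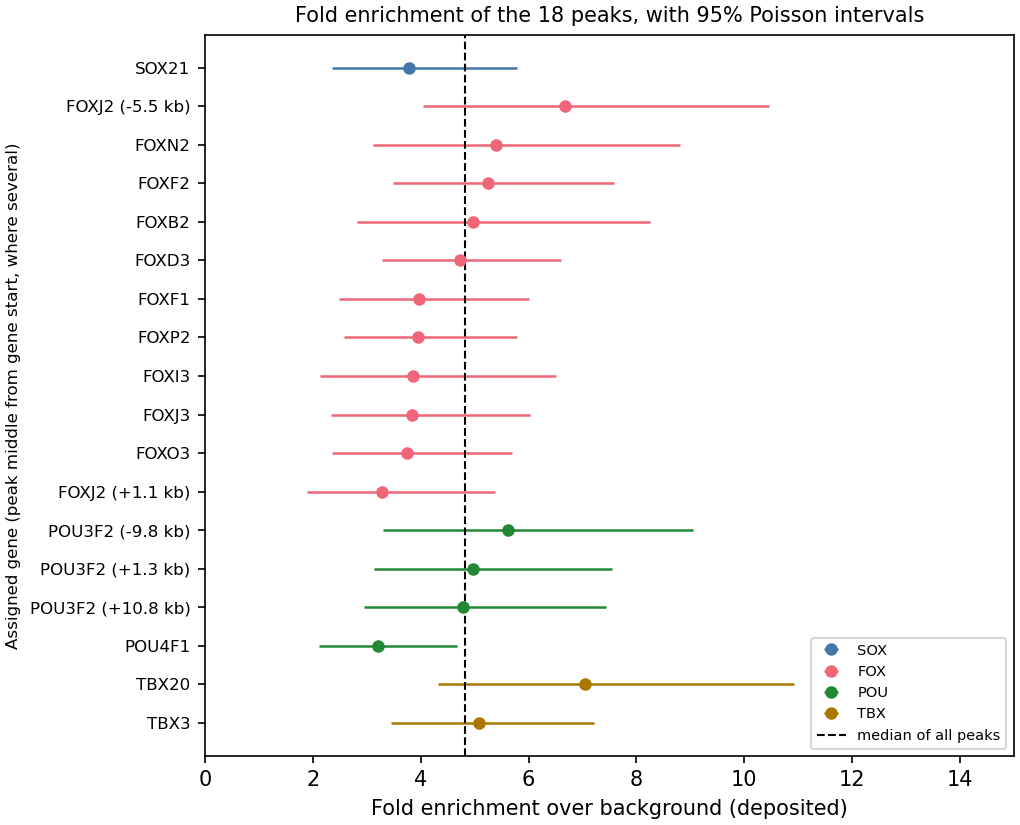
Points give the deposited fold enrichment of the 18 peaks and bars its exact 95% Poisson interval, by family, with the median of all peaks as a dashed line. POU4F1 is the peak whose interval lies wholly below the line, at 2.12 to 4.67.

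Among the forkhead genes, both class F members had a peak on the annotated start, each 268 bp wide. FOXF1 is a Hedgehog-responsive factor of lung and gut mesenchyme. Its peak lay on chr16:86510459-86510726, from 68 bp upstream of the start to 199 bp past it, with a fold of 3.96 (2.49 to 6.02) from 20 fragments over a background of 4.30. FOXF2 acts in the mesenchyme of palate and gut. The FOXF2 peak, on chr6:1389581-1389848, had a fold of 5.24 (3.49 to 7.59) from 26 fragments over 4.15. It spanned the start of the deposited annotation by 14 bp, overlapped the divergent transcript FOXF2-DT and lay 466 bp from MIR6720. Each of these genes sits in a cluster of forkhead genes. FOXC2 and FOXL1, 51407 and 63127 bp from FOXF1, were assigned no peak, nor were FOXQ1 and FOXC1, 74818 and 214312 bp from FOXF2.

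FOXN2 and FOXP2 also had peaks across the annotated start. FOXP2, a repressor needed for speech and language, had its peak on chr7:114086191-114086642 with a fold of 3.95 (2.58 to 5.79) from 24 fragments over 5.34. The nearest other peak of the list was 2843935 bp away. At FOXN2 the peak lay on chr2:48314503-48315341, with a fold of 5.40 (3.11 to 8.81) from 14 fragments over 1.78. RefSeq places the start of FOXN2 further upstream, at 48313659, so by that annotation this peak lay inside the gene.

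FOXO3, which insulin and AKT signalling keep out of the nucleus and which maintains blood stem cells, had a peak just inside its start. It covered chr6:108559936-108560311, began 101 bp past the start, and had one of the lowest folds among the members, 3.75 (2.36 to 5.69), from 20 fragments over 4.61. FOXD3, a factor of neural crest and pluripotent cells, had the most fragments of the 18 peaks, 32 over a background of 5.99. That peak lay on chr1:63322155-63322443, 598 bp upstream of the deposited start and within FOXD3-AS1, a long non-coding RNA gene. Its fold was 4.72 (3.27 to 6.61), and its deposited −log10 q of 9.14 was the highest of the members. Another peak, at 4.86-fold (3.18 to 7.13), lay 5111 bp from FOXD3 and was assigned to LINC00466.

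The broadly expressed class J genes FOXJ2 and FOXJ3 both had a peak inside the gene near its start. FOXJ3 had 17 fragments over 3.69 on chr1:42335275-42335545, with a fold of 3.84 (2.33 to 6.02). In FOXJ2 the peak inside the gene, on chr12:8033602-8034084, was among the lowest, with a fold of 3.29 (1.90 to 5.37) from 14 fragments over 3.56. A further FOXJ2 peak lay 5194 bp upstream of the start, on chr12:8026917-8027509, and had the highest fold of the forkhead peaks, 6.68 (4.04 to 10.5), from 17 fragments over 1.70. The intervals of the FOXJ2 peaks overlapped, and the upstream one had the lower background. FOXI3, a factor of ectodermal placodes, had the fewest fragments of all, 12 over 2.37, on chr2:88451398-88451875 inside the gene, with a fold of 3.86 (2.14 to 6.51). FOXB2 had a peak 7063 bp upstream, on chr9:77012212-77012592, with a fold of 4.98 (2.82 to 8.26) from 13 fragments over 1.81. No other peak lay within 1 Mb of it.

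POU3F2, also called BRN2, a factor of neural progenitors and melanoma cells, was assigned 3 peaks, more than any other member. The upstream peak, on chr6:98824672-98824970, had a fold of 5.63 (3.31 to 9.05) from 15 fragments over 1.84. A peak that began 942 bp inside the gene, on chr6:98835534-98836298, had 4.97 (3.13 to 7.55) from 20 fragments over 3.22. The downstream peak, on chr6:98845178-98845595, had 4.79 (2.94 to 7.43) from 18 fragments over 2.96. The peaks were separated by 10564 and 8880 bp, and their intervals overlapped throughout. With FOXJ2, 2 of 15 members had more than 1 peak, against 7.64% of protein-coding genes with a peak, of which 19 had 3 or more.

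POU4F1, also called BRN3A, a factor of sensory neurons, had the lowest fold of the members, 3.20 (2.12 to 4.67), on chr13:78603382-78603971. It had 25 fragments, more than most members, over the highest background among them, 7.11. The peak ran from 411 bp upstream to 178 bp past the start and lay within the long non-coding RNA gene OBI1-AS1.

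TBX20, needed for heart development, had the highest fold of the 18 peaks. Its 18 fragments, on chr7:35253298-35253673, gave a fold of 7.05 (4.33 to 10.9). They lay over a background of 1.70, the lowest value of the list, which the upstream FOXJ2 peak shared. The peak lay inside the gene, 474 bp from its start, and ranked 235 of 3462. TBX3, a repressor active in limb, mammary gland and heart, had the widest peak of the members, 2054 bp on chr12:114682782-114684835. It crossed the start and overlapped TBX3-AS1, with a fold of 5.07 (3.45 to 7.21) from 29 fragments over 4.91. A further peak of 5.24-fold (3.13 to 8.32) lay 772 bp beyond the other end of TBX3 and was assigned to an Ensembl gene with no symbol.

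SOX21, a group B2 repressor that opposes the group B1 factors in neural cells, was the SOX gene with an assigned peak. The peak lay 1134 bp beyond the end of the gene, on chr13:94708110-94708488, within the long non-coding RNA gene LINC00391. Its fold was 3.77 (2.35 to 5.79) from 19 fragments over 4.30. A neighbouring peak, 281 bp away, had a fold of 3.45 (2.35 to 4.90) and was assigned to a gene with no symbol. Neither lay at the start of SOX21.

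Fold and fragment number ordered the members differently. The members over a background below 2 fragments were TBX20, FOXN2, FOXB2 and the upstream peaks of FOXJ2 and POU3F2, with a median fold of 5.63, the value of all 912 peaks over such a background. The 7 member peaks over 4 to 6 fragments had a median of 3.96, and the 623 such peaks of the list 3.95. The lowest fold that was listed also fell with background, at 3.87 below 2 fragments and 2.64 between 6 and 8. Over a background below 2 fragments, the fewest fragments of a listed peak were 10, and between 6 and 8 they were 20. A member without an assigned peak may thus hold enrichment below these values that was not detectable at this depth.

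**Figure D4:**
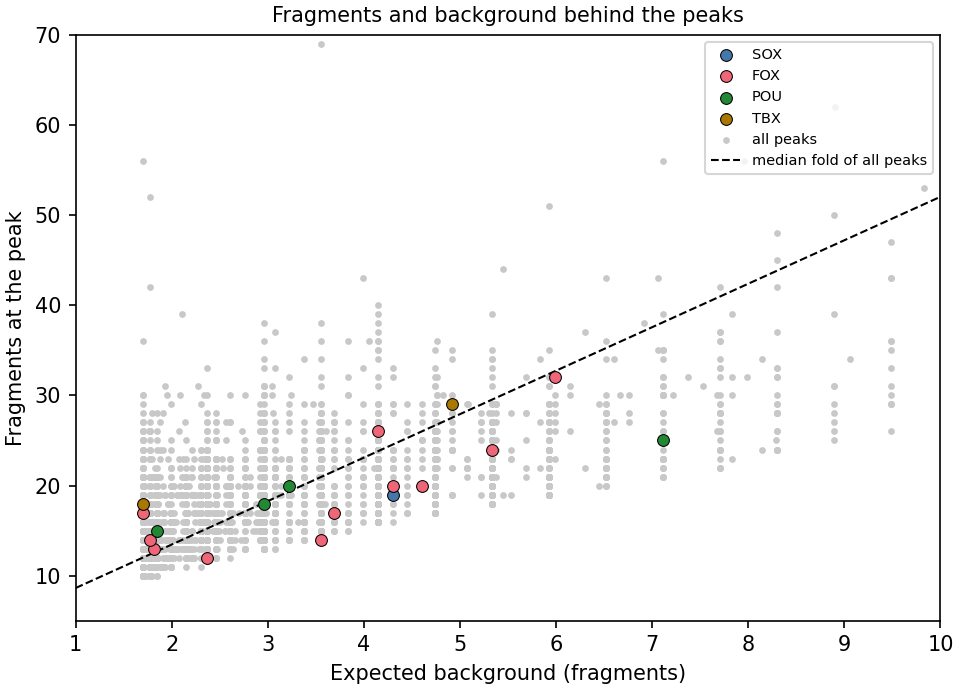
Each point is a peak, placed by its expected background and by the fragments at its summit, with the members coloured by family and all peaks in grey. The dashed line marks the median fold of the list, 4.82; 58 of the 3462 peaks lie beyond the axes.

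The deposited table names a gene for a peak by position, and some peaks on or beside family genes were given to other genes. SOX6, a group D factor that represses fetal globin and acts in cartilage, spans a peak on chr11:16606026-16607901 that was assigned to C11orf58. That peak had a fold of 7.31 (4.95 to 10.5) from 28 fragments over 2.96, above each of the 18 assigned peaks in value, and its interval lay wholly above the median of the list. POU3F3, a relative of POU3F2 that acts in cortex and kidney, had a peak across its RefSeq start, on chr2:104853249-104853528, assigned to a gene with no symbol. It had a fold of 3.46 (2.28 to 5.04) from 25 fragments over 6.52. A further peak, 7853 bp from POU3F3, was assigned to PANTR1 (4.27-fold, 2.72 to 6.43). FOXA1, a pioneer factor of endoderm and hormone-responsive tissue, had a peak 1090 bp outside its span that was assigned to TTC6 (5.34-fold, 3.23 to 8.37). Near SOX14, a group B2 gene, a peak 5318 bp away was assigned to LINC01210 (5.01-fold, 2.89 to 8.17).

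Counted by RefSeq span instead, 15 of 87 members had a peak on the RefSeq span widened by 1000 bp (17.2%), against 13.7% of protein-coding genes. This count gained SOX6 and POU3F3 and lost SOX21 and FOXB2. Within 10000 bp of the span there were 19 members (21.8%), against 17.0% of protein-coding genes, as SOX14, SOX6, FOXA1 and POU3F3 joined the 15. The families thus stood closer to the background by overlap with the widened spans than by the deposited assignment.

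Peaks were also counted at related genes outside the selection. Of the 5 genes left out, 2 had a peak (40%): SOX4 had a peak 4691 bp upstream (3.51-fold, 2.06 to 5.65) and TBX18 one inside the gene (4.72-fold, 3.09 to 6.93). FOXC1, FOXC2 and FOXD1 had none. Of 11 family genes with other names, such as SRY, EOMES and TBXT, 1 had a peak (9.09%), TBR1, a T-box factor of the cortex (5.19-fold, 2.94 to 8.62). Of 10 genes of the PI3K and AKT route that controls FOXO factors, 3 had a peak (30%), namely the PI3K subunit genes PIK3CB (4.71-fold) and PIK3R1 (2.89-fold), and SGK1 (6.68-fold), a kinase that also phosphorylates FOXO3. The peak of PIK3R1 crossed its start. Its fold was the lowest of the list over a background of 4 to 6 fragments. The interval, 1.80 to 4.43, lay wholly below the median of the list. LIN28B, an inhibitor of let-7 processing, was the 1 of 11 pluripotency partners (9.09%) with a peak (6.01-fold). Of 6 Groucho-related genes, which encode corepressors used by several forkhead and SOX factors, TLE3 and TLE4 (33.3%) had peaks, with 2 each. These were at 3.89-fold (2.57 to 5.67) and 5.98-fold (4.01 to 8.60) in TLE3. In TLE4 the upstream peak was at 6.37-fold (4.84 to 8.23) from 56 fragments over 7.95. The TLE4 peak inside the gene was at 2.42-fold (1.84 to 3.14) from 55 fragments over 22.1. The upstream TLE4 interval lay wholly above the median of the list and the other wholly below it. The background of 9.93% applies to each of these lists, and none of them was tested.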

How the data were processed

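The deposited table is headerless, and what each column holds was read off its values. Per the submitters' processing notes, the build was hg38, and the tools named, with no role given, include MACS2 2.1.1.20160309.6 and ChIPseeker 1.18.0. The deposited fold enrichment is the ratio of fragments to expected background, with 1 added to each, and the deposited −log10 p and −log10 q come from the peak caller. The deposited score follows from the −log10 q and was not used. These are the authors' values for each peak, used only within this list. Its link to wild-type MECOM rests on the table's name.

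A whole number of fragments and a background were sought that give a peak's fold and its −log10 p within 0.001. For the very highest −log10 p the tolerance was instead relative to the value. There was exactly 1 solution for 3462 of 3462 peaks, and 500 of 500 simulated peaks were recovered. The simulated peaks were made with the same formula and did not span the full range of backgrounds in the list. Their recovery thus checks the arithmetic only. Library totals were not used here. RefSeq (GRCh38.p14) matched 2249 of 2286 symbols, older symbols included. Its spans overlapped those of the table for 1989 of 1990 protein-coding genes with a peak. With 1 list, no test between groups was made. The members and gene lists were chosen with earlier results of these data known. A gene of these lists is not reported here and was left out of the counts. Every member with a peak is named; the 5 highest and 3 lowest peaks, those across a start and those of genes with several are given in full. Alternatives were a q of at most 1e-05, higher folds, merged neighbours, autosomes, the genes left out put back, other distances and assignments, 1 peak per gene, 1 strand and a shorter window. Python 3.11.15, pandas 2.3.3, numpy 2.4.6, scipy 1.17.1 and matplotlib 3.10.9 were used.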

Additional observations from a re-analysis of the deposited data

How the results depend on the processing

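The number of member genes assigned a peak, 15, fell to 8 when peaks needed a q no higher than 1e-05 and to 7 among peaks at or above the median fold; both settings keep fewer peaks. It was 15 to 19 in the other 6 settings, out of 81 genes on autosomes, 92 with the left-out genes put back and 87 otherwise. The count of 19, within 10000 bp of the span, has its own background of 17.0%. The share of member peaks at a start, 61.1%, was 33.3% when the peak had to span the start, and 50 to 77.8% in the other 7 settings, of which that by nearest edge (72.2%) was chosen after seeing the data. The median fold, 4.76, was 5.32 among peaks at or above the median of the list, as the setting itself requires, and 4.72 to 5.16 in the other 5. On the gene's strand only, AGATAA was found in 2 members in place of 5, GATGAG likewise in 2 in place of 6, and CGGAAG in 2 in place of 8; a search of 1 strand covers fewer letters. No paired analysis was possible because the groups hold a lone library each. The number of fragments, a median of 18.5 at the member peaks, limits any ranking of them.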
